A study of Homo sapiens with 2 samples.

Results

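To examine LDB1 at the genes of the Krüppel-like factor (KLF) family, the LDB1 peaks of NB4 cells were searched around 10 family members other than KLF1: KLF2, KLF3, KLF4, KLF6, KLF7, KLF9, KLF10, KLF12, KLF13 and KLF16. A peak belonged to a gene when it overlapped the gene's body, as annotated in GENCODE release 44, or the 30 kb to either side. This gave 14 of the 11046 deposited peaks, at 7 of the 10 genes. KLF3 had 4 peaks, KLF13 and KLF16 had 3 each, and KLF2, KLF7, KLF9 and KLF10 had 1 each. KLF4, KLF6 and KLF12 had none. The genes were chosen by name with earlier results of these peaks known, so their counts are a description.

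NB4 is an established human acute promyelocytic leukemia cell line. The study profiled it by CUT&Tag, in which an antibody leads a transposase to a protein on chromatin and the enzyme tags the DNA beside it. An antibody to LDB1 was used for 1 library and IgG for the other. The labels give LDB1 overexpression for the former and no treatment for the latter, so antibody and treatment cannot be told apart. The methods describe CUT&Tag on NB4 cells and mention no overexpression for it. Whether overexpression affected the number or place of the peaks was not tested. No expression values were at hand to check the cells against their markers. The only values are the start, end and length of each LDB1 peak in hg38, with no height and no read depth, so each value below comes from 1 library, has no replicate error and was put to no test between groups. Intervals given with shares are Wilson 95% intervals and cover counting error only.

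KLF proteins are transcription factors that read CACCC and related GC-rich boxes through zinc fingers at their carboxyl end, and they differ in the cofactors that their amino-terminal parts recruit. KLF2, KLF4, KLF6 and KLF7 are known mainly as activators, KLF3 and KLF12 as repressors that bind CtBP, and KLF9, KLF10, KLF13 and KLF16 as factors that bind Sin3A. In blood, KLF1 drives red cell genes, KLF3 is a repressor downstream of KLF1, KLF4 takes part in monocyte differentiation and KLF2 in the quiescence of lymphocytes. LDB1 has no DNA-binding domain and is held on DNA by partners such as LMO2, TAL1 and GATA factors, which together occupy a composite of an E-box part and a GATA site.

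Among the repressors that bind CtBP, KLF3 held 4 peaks and KLF12 none. Both KLF2 and KLF7 of the 4 activators had 1 peak, while KLF4 and KLF6 had none. All 4 genes of the Sin3A group had a peak, 8 in sum, though the KLF10 peak overlapped its window by only 32 bp. Peaks 2 and 3 of KLF16 lay within the neighbouring gene REXO1, whose start site was nearer to them. The central 31 bases of the KLF9 peak occur 931 times in hg38. With 3 kb around each gene, only KLF9 and KLF13 of this group had a peak. The grouping by cofactor was added after the values were seen, so its counts are a description. Of all 20033 protein-coding genes, 7347 (36.7%) had a peak under the same rule, compared with 7 of the 10 KLF genes. With only peaks whose central 31 bases occur once in hg38, 6 of the 10 KLF genes had a peak. The share of all genes was not counted for such peaks. With all peaks kept, 34.2% of protein-coding genes with bodies up to 20 kb had a peak. The share was 37.9% for bodies over 20 and up to 100 kb, and 39.7% for longer ones. In the same classes 3 of 5, 3 of 3 and 1 of 2 KLF genes had a peak. At least 4 peaks, as at KLF3, were found at 6.17% of protein-coding genes. At least 3 peaks, as at KLF3, KLF13 and KLF16, were found at 10.8%. Together the 10 windows spanned 1.36 Mb and held 10.3 peaks per Mb. The density was 5.11 peaks per Mb over the windows of all protein-coding genes and 3.58 over the assembled chromosomes.

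**Figure D1:**
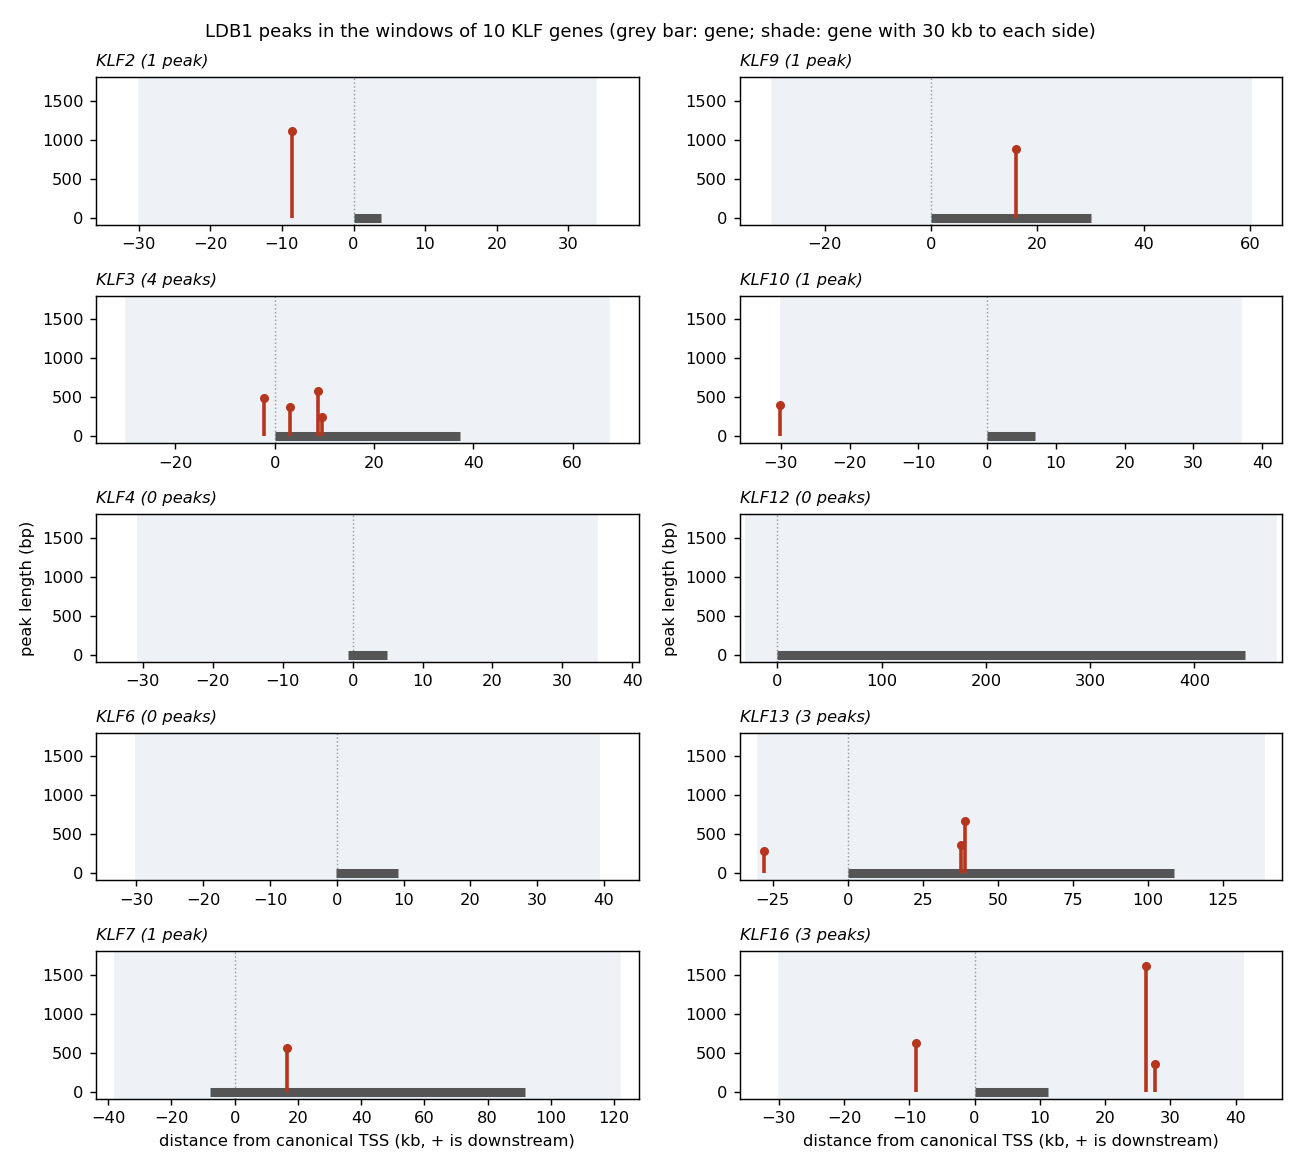
Each panel is 1 of the 10 KLF genes, with the distance from the canonical transcription start site on the x axis (kb, positive in the direction of transcription, own scale in each panel) and the length of each LDB1 peak in bp as the height of its stem; the grey bar is the gene and the shade adds 30 kb to each side. KLF3 has 4 peaks from 2149 bp upstream to 9490 bp downstream of its start site, the KLF10 peak lies at the edge of the shade, and KLF4, KLF6 and KLF12 have none.

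The sequences that follow show the sites of the LDB1 partners in these peaks. They are read from hg38, 5′ to 3′, in lower case, and the capitals mark the motifs. The GATA motif was AGATAA or AGATAG or, with T in the first place, TGATAA or TGATAG. The TAL1 E-box was read as either CAGATG or CAGCTG. The KLF motif was CCACNCCC, where N is any base. In the composite, CTG is followed after 7 or 8 bases by a GATA motif, so each composite also counts as a GATA motif. All were searched on both strands. Over their whole length 3 of the 14 peaks held the composite (21.4%, 7.57 to 47.6%), at KLF7, KLF13 and KLF16, compared with 22.4% of all peaks. These 3 stretches are shown because the composite is the known element of the LDB1 complex:
KLF7 peak 1, chr2:207149474-207149526, plus strand: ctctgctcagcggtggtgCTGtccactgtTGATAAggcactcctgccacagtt
KLF13 peak 1, chr15:31298887-31298981, minus strand: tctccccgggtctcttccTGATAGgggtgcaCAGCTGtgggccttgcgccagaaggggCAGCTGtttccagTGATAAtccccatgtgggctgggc
KLF16 peak 2, chr19:1836933-1837009, plus strand: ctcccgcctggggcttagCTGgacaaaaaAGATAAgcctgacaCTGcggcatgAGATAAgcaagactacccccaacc

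At KLF7 the spacing was 8 bases and at KLF13 it was 7. In the KLF13 stretch the CTG was part of a whole E-box, CAGCTG, and a second E-box and a second GATA motif lay beside it, so E-boxes are in capitals there too. The KLF16 peak held 2 composites in a row on the same strand, with spacings of 8 and then 7 bases. The KLF13 composite lay 2 bp and the KLF7 composite 31 bp from the peak midpoint, while those of KLF16 lay 289 and 264 bp from it, outside the central 200 bp.

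Other stretches are shown for the gene with the most peaks, KLF3, and for the peaks of KLF2 and KLF13 that carry GATA motifs with an E-box near the midpoint:
KLF3 peak 1, chr4:38662070-38662111, plus strand: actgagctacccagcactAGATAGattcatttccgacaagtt
KLF3 peak 3, chr4:38672994-38673035, plus strand: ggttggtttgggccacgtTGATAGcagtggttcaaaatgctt
KLF3 peak 4, chr4:38673598-38673659, plus strand: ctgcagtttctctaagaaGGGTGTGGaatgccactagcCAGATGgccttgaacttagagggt
KLF2 peak 1, chr19:16316228-16316340, plus strand: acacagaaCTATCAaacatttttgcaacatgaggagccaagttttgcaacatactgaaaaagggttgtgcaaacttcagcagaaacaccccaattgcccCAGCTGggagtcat
KLF13 peak 2, chr15:31364505-31364557, plus strand: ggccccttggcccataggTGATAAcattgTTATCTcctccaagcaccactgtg

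KLF3 peak 1 and peak 3 each had 1 GATA motif in the central 200 bp. Peak 4 of KLF3 had none and carried a KLF motif, read here as its complement, 12 bases ahead of an E-box. In KLF2 a GATA motif, read as its complement, and an E-box stood 85 bases apart. The KLF13 stretch shows a pair of GATA motifs on opposite strands with 5 bases between them, and the nearer of the 2 E-boxes of that peak lay 86 bp beyond the midpoint.

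KLF3 (ENSG00000109787.13, chromosome 4, 38664197 to 38701517, plus strand) encodes the CtBP-binding repressor of the family that is best known in blood. Its 4 peaks lay within a stretch of 12008 bp around the start of the gene. Peak 1 (38661804 to 38662296, 493 bp) had its midpoint 2149 bp upstream of the canonical start site, inside the antisense lncRNA gene KLF3-AS1. Peaks 2 (38667110 to 38667489, 380 bp), 3 (38672642 to 38673223, 582 bp) and 4 (38673568 to 38673811, 244 bp) lay in intron 1. Their midpoints were 3100, 8733 and 9490 bp downstream of the start site. Only 344 bp separated peak 3 from peak 4, and the next peak beyond peak 4 was 185227 bp away. No peak lay in the rest of the gene toward its end. KLF12 (ENSG00000118922.19, chromosome 13, 73686089 to 74134404, minus strand), the other CtBP-binding member, is the longest of the 10 genes with 448316 bp. No peak lay in it, and the nearest was 441267 bp away on its upstream side. For comparison, 14.1% of the 19970 protein-coding genes on chromosomes with peaks were farther from a peak, and their median gap was 66873 bp.

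KLF13 (ENSG00000169926.11, chromosome 15, 31326835 to 31435665, plus strand), a Sin3A-binding factor known from T cells and from globin genes, had 3 peaks. Peak 1 (31298771 to 31299059, 289 bp) was intergenic, 27920 bp upstream of the canonical start site, and contained the composite shown above. Peaks 2 (31364425 to 31364789, 365 bp) and 3 (31365481 to 31366144, 664 bp) were a pair in intron 1 of the canonical transcript, 691 bp apart, at 37772 and 38977 bp downstream of its start site. KLF13 has other annotated start sites, and peak 3 ended 10 bp ahead of one of them. Measured from the nearest own start site, the midpoints of the pair were 1547 and 342 bp away. Each peak of KLF13 carried at least 1 E-box and 2 GATA motifs somewhere in its length.

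KLF16 (ENSG00000129911.9, chromosome 19, 1852399 to 1863579, minus strand), another member of the Sin3A group, had 3 peaks and none in its body. Peak 1 (1872261 to 1872889, 629 bp) lay 8996 bp upstream of the start site, outside any annotated gene, and KLF16 was its nearest protein-coding start site. It had an E-box and an ETS motif in its central 200 bp and no GATA motif in its length. Peaks 2 (1836442 to 1838055, 1614 bp) and 3 (1835779 to 1836128, 350 bp) lay downstream of KLF16 within the neighbouring gene REXO1, 313 bp apart. The start site of REXO1 was nearer to them, at 11235 and 12530 bp, than that of KLF16, at 26331 and 27626 bp. They were the only peaks of the 14 whose nearest protein-coding start site was not that of the KLF gene.

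KLF9 (ENSG00000119138.5, chromosome 9, 70384604 to 70414657, minus strand), known as a hormone-responsive member, had 1 peak of 885 bp (70398229 to 70399113) in intron 1, 15986 bp downstream of the start site. The central 31 bases of this peak occur 931 times in hg38. Each of the other 13 peaks had a central sequence found once, and 10.7% of all peaks had a repeated one. Reads from repeated sequence may be placed at more than 1 copy, and the part of this in the KLF9 peak was not tested. None of the motifs lay in its central 200 bp, although its whole length held 3 GATA motifs, 2 E-boxes, 2 RUNX motifs, 1 KLF motif and 1 ETS motif.

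KLF7 (ENSG00000118263.16, chromosome 2, 207074137 to 207173856, minus strand), a broadly expressed activator, had 1 peak of 561 bp (207149251 to 207149811) in intron 1, 16417 bp downstream of the canonical start site. The nearest other peaks were 105721 bp away on the upstream side and 2123824 bp away on the downstream side. KLF2 (ENSG00000127528.6, chromosome 19, 16324826 to 16328685, plus strand) also had 1 peak, of 1111 bp (16315729 to 16316839). Its midpoint was 8542 bp upstream of the start site, within the divergent lncRNA gene KLF2-DT. This peak was longer than 91.8% of all peaks and held 4 GATA motifs and 3 E-boxes.

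KLF4 (ENSG00000136826.15, chromosome 9, 107484852 to 107490482, minus strand) and KLF6 (ENSG00000067082.15, chromosome 10, 3775996 to 3785281, minus strand) are both activators with roles in myeloid cells. The nearest peak to KLF4 was 210276 bp away, and its nearest protein-coding start site was that of RAD23B. KLF6 missed the window by less, with a peak of 680 bp at 42593 bp upstream of the gene, and the start site of KLF6 was the nearest protein-coding one to it. Among the same protein-coding genes, 26.0% were farther from a peak than KLF4 and 57.7% farther than KLF6.

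KLF10 (ENSG00000155090.15, chromosome 8, 102648784 to 102655725, minus strand), the early gene of TGF-beta signalling, owed its place to the edge of the window. Its peak (102685694 to 102686088, 395 bp) overlapped the window by 32 bp and had its midpoint 30166 bp upstream of the start site. It was also the only one of the 14 peaks to overlap an exon of a canonical transcript, with 334 bases in the lncRNA gene ENSG00000283959. No motif lay in its central 200 bp and 1 GATA motif lay near its end.

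The peaks of the KLF genes were then set against all peaks by position. Of the 14 peaks, 7 had their midpoint in an intron of their gene, 5 lay upstream and 2 downstream. The 7 intronic peaks were all in intron 1, with 3 of them at KLF3. The shares of all peaks in an intron or in intron 1 were not counted, so these counts have no background. None of the 48 annotated start sites of the 10 genes lay in a peak, and 3.65% of protein-coding genes had an own start site in a peak. Peak midpoints within 3 kb of an own start site were found at 2 of the 10 genes, KLF3 and KLF13, and at 10.3% of protein-coding genes. With the canonical start site alone, KLF3 was the only one. Of the 14 peaks, 5 (35.7%, 16.3 to 61.2%) lay within 3 kb of the start site of any annotated transcript, compared with 35.6% of all peaks. There were 3 pairs under 1 kb apart, at KLF3, KLF13 and KLF16, and 6 of the 14 peaks (42.9%, 21.4 to 67.4%) were in such a pair, compared with 22.5% of all peaks, a share within that interval. The peaks of a pair are not independent of each other, so this interval is too narrow. The central 200 bp had a median GC content of 55.5% (range 46 to 67%) at the KLF genes and 51.5% in all peaks.

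The lengths of the 14 peaks ranged from 244 bp at KLF3 to 1614 bp at KLF16, with a median of 527 bp (interval 350 to 885 bp). All peaks had a median of 451 bp and quartiles of 314 and 666 bp. The longest peak of KLF16 and the peaks of KLF2 and KLF9 were above the upper quartile, and peak 4 of KLF3 and peak 1 of KLF13 were below the lower one. The KLF16 peak within REXO1 was exceeded by 309 of all peaks. KLF3 had the most peaks, yet they summed to 1699 bp, compared with 2593 bp for the 3 peaks of KLF16.

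**Figure D2:**
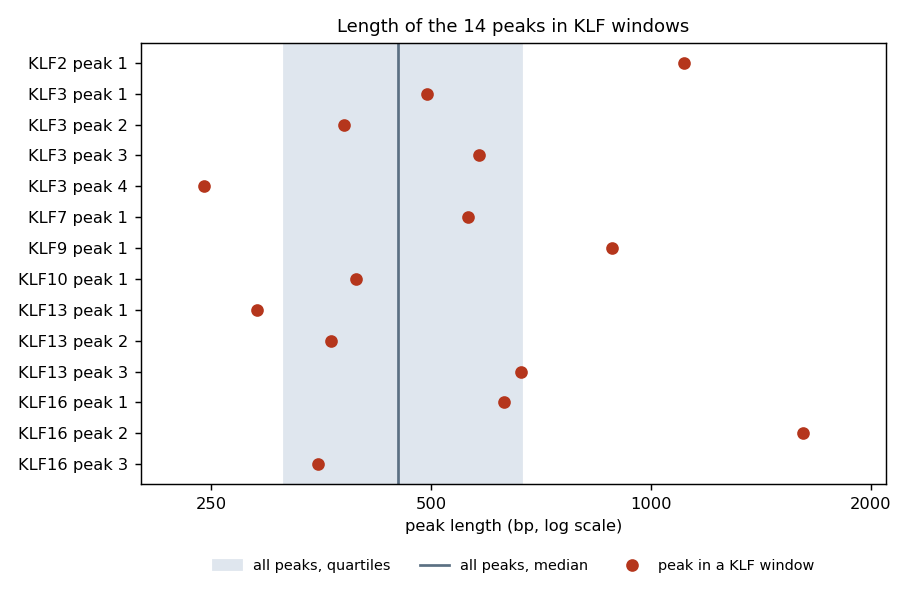
Each point is 1 of the 14 peaks, named by its gene and numbered in the direction of transcription, with its length in bp on a log scale; the shade gives the quartiles (314 and 666 bp) and the line the median (451 bp) of all peaks. Points of KLF2, KLF9 and KLF16 lie to the right of the shade, and the 4 peaks of KLF3 lie at or below 582 bp.

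Motifs were counted in the 200 bp around each midpoint, so that peaks of unequal length could be compared. The GATA motif was found in 6 of the 14 peaks (42.9%, 21.4 to 67.4%), at KLF2, KLF3, KLF7 and KLF13, compared with 47.1% of all peaks. The E-box was also found in 6, at KLF2, KLF3, KLF13 and KLF16, compared with 33.8% of all peaks. The composite was found in 2 (14.3%, 4.01 to 39.9%), compared with 11.1%, and the KLF motif in 2, at KLF3 and KLF16, compared with 12.6%. The RUNX motif (TGTGGT) and the AP-1 motif (TGACTCA or TGAGTCA) were in none of the 14, with an upper Wilson limit of 21.5% for each. They were found in 17.3% and 9.48% of all peaks. The ETS motif (CAGGAAGT or CCGGAAGT) was found in 1, at KLF16, compared with 2.36%. With 14 peaks each interval held the share of all peaks, so no difference could be detected at this number. In flanking windows of the same size, 1000 bp from the midpoints of all peaks, the shares were 27.6% for GATA, 22.2% for the E-box, 1.63% for the composite and 8.45% for the KLF motif.

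**Figure D3:**
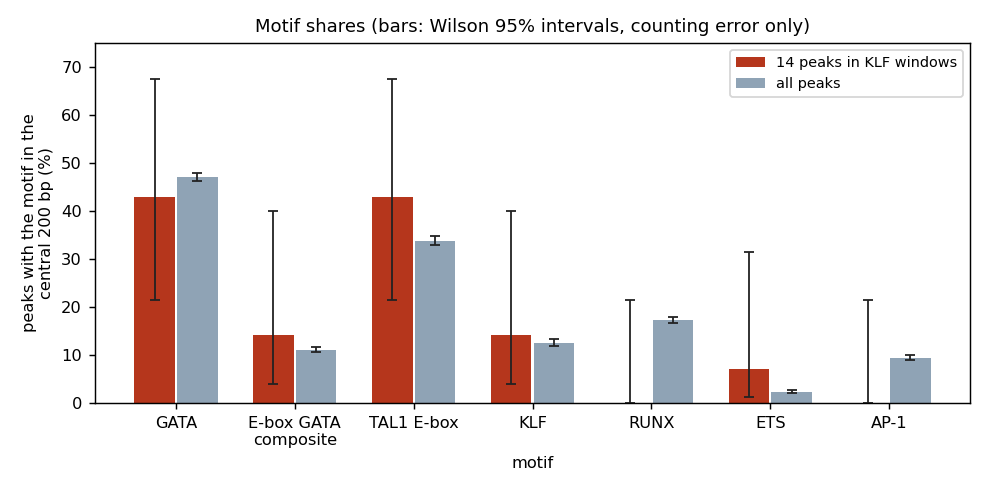
Bars give the percent of peaks with each motif in the central 200 bp, for the 14 peaks of the KLF genes (red) and for all peaks (grey), with Wilson 95% intervals. Each red interval spans the grey bar, and RUNX and AP-1 have no red bar since none of the 14 peaks had them.

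Over the whole length of the peaks, GATA motifs were found in 12 of the 14 (85.7%, 60.1 to 96.0%), all but peak 4 of KLF3 and peak 1 of KLF16, compared with 71.4% of all peaks. They made up 25 sites in all or 2.92 per kb of peak, compared with 2.64 per kb over all peaks. Both peaks without a GATA motif had an E-box, so each of the 14 peaks had 1 or the other (100%, 78.5 to 100%), compared with 85.0% of all peaks. A longer peak has more room for either motif. In the central 200 bp, 9 of the 14 peaks had 1 or the other, compared with 63.9% of all peaks. The KLF motif occurred in 6 peaks (42.9%, 21.4 to 67.4%), of which 3 were at KLF3, compared with 28.5% of all peaks. The others were the KLF9 peak and peaks 2 and 3 of KLF16. The density of the KLF motif was 0.934 sites per kb, compared with 0.666 per kb over all peaks. It rested on 8 sites and was given no interval. No peak held the AP-1 motif, which was found in 19.2% of all peaks. A GATA motif together with an E-box in the central 200 bp was found in 3 peaks, at KLF2 and KLF13, and in 16.9% of all peaks. In 4 peaks, at KLF3, KLF9, KLF10 and KLF16, the central 200 bp held none of the motifs (28.6%, 11.7 to 54.6%), compared with 23.5% of all peaks.

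**Figure D4:**
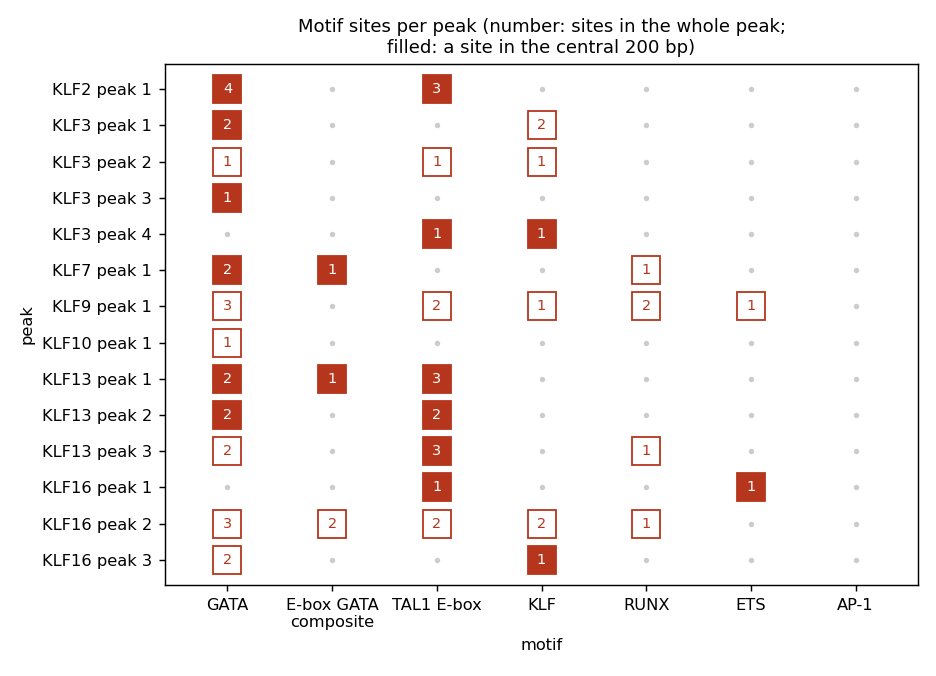
Rows are the 14 peaks and columns the motifs, and each number is the count of sites in the whole peak, on a filled square where at least 1 site lies in the central 200 bp. The GATA column has a number in 12 of the 14 rows, the composite column in 3, and the AP-1 column in none.

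Other window sizes changed which genes had a peak. With 3 kb around each gene 4 of the 10 genes had one, namely KLF3, KLF7, KLF9 and KLF13, compared with 19.7% of protein-coding genes. With 10 kb KLF2 and KLF16 joined them, compared with 25.1%, and with 100 kb KLF6 made it 8 genes, compared with 58.3%. Between 30 and 100 kb there were 15 further peaks, of which 8 belonged to KLF10. On the upstream side of KLF10 were 3 of these, nearest to KLF10 among protein-coding genes, and on its downstream side were 5, nearest to ODF1, with a longest peak of 2257 bp. The upstream peak at 68345 bp from the KLF10 start site has central 31 bases that occur 165 times in hg38. KLF3 had 2 further peaks, both within KLF3-AS1, at 42644 and 58886 bp upstream of the start site. In the central 200 bp, composites stood in 2 of the 15, compared with 11.1% of all peaks. One of these peaks lay 70819 bp upstream of KLF9 and the other 66177 bp upstream of KLF2. The nearest protein-coding start site to the latter was that of AP1M1, at 60738 bp.

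To place the 10 genes in their family, the 17 other KLF and SP genes were searched in the same way. Of these, 8 had a peak and 9 had none, compared with 36.7% of protein-coding genes with a peak. With only peaks whose central 31 bases occur once in hg38, 6 of the 17 had one. The density was 8.36 peaks per Mb of window, compared with 5.11 over the windows of all protein-coding genes. Some windows of the 17 genes overlap, and bases they share were counted for each gene, which lowers the density of 8.36. KLF1 had 3 peaks, the longest of 2558 bp with its midpoint 111 bp from the start site. SP6 and SP2 are neighbours, had 3 peaks each and shared 2 of them. KLF11, KLF17, SP3, SP5 and SP7 had 1 each. An own start site lay in a peak at KLF1 and SP6, and at none of the 10. The median gap from gene to nearest peak was 8334 bp for the 10 genes and 44020 bp for the 17.

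**Figure D5:**
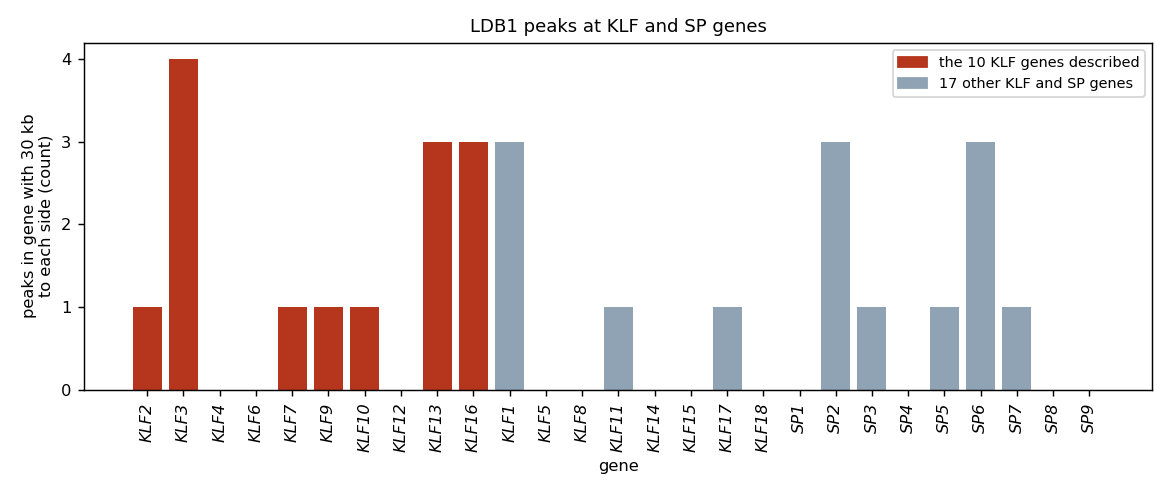
Bars give the number of LDB1 peaks in each gene or within 30 kb of it, for the 10 KLF genes described (red) and the 17 other KLF and SP genes (grey). KLF3 has the highest count with 4, KLF13, KLF16, KLF1, SP2 and SP6 have 3, and genes with no bar have no peak.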

How the data were processed

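The authors profiled NB4 cells by CUT&Tag. Bowtie2 2.4.4 aligned their reads to hg38, and MACS3 3.0 called peaks from paired-end fragments at a q-value limit, per the labels and methods. Whether IgG served as control, and whether duplicates or repeated regions were removed, is not stated. Peaks called without a control can include background sites. The deposited values were peak positions and lengths in bp, with no score or fold enrichment. The IgG library was not analysed here. The depth is unknown.

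Positions were taken to count from 1, because that gives the deposited length in all 11046 peaks, and the last peak on chromosome X ended at 156003136 of 156040895 bp. An overlap of 1 bp counted. The midpoint stood in for the missing summit. Copies of a peak's central 31 bases were counted on both strands of hg38. The interval of a median came from order statistics. Scripts ran in Python 3.11.15 with pysam 0.24.0, pandas 2.3.3, numpy 2.4.6, SciPy 1.17.1 and matplotlib 3.10.9. The counting was tested on simulated data, where 1000 of 1000 windows and 3500 of 3500 motif sites were recovered.

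The genes, motifs and lists were chosen with earlier results of these data known. All 10 genes were named, other KLF and SP genes when they had a peak, and sequences were shown for peaks with the composite. The stretches at KLF3, KLF2 and KLF13 peak 2 and the grouping by cofactor were added after the values were seen. Alternatives were other gene, start site and motif windows, the longest 5523 peaks, peaks whose centre occurs once, merged peaks and leaving out the gene with the most peaks.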

Additional observations from a re-analysis of the deposited data

How the results depend on the processing

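No paired analysis was possible because there was 1 library for each antibody. Over 14 results, 65 alternative values stayed within 1.5 times a count or within the interval of a share or median, and 15 did not. The number of peaks was 8 with 3 kb around each gene, 29 with 100 kb and 8 among the longest 5523 of all peaks. With 3 kb the KLF genes with a peak numbered 4, and the other KLF and SP genes 3, or 4 with 10 kb. A peak near an own start site was left at 1 gene with a 1 kb limit, at KLF13, and at 1 with canonical start sites, at KLF3. The share of peaks near any start site was 7.14% with a 1 kb limit, and with 10 kb around each gene 100% had the KLF gene as nearest. In whole peaks the shares were 85.7% for GATA, 42.9% for the KLF motif and 28.6% for RUNX. The E-box share was 14.3% in 100 bp, and the KLF motif share was 0% among the longest peaks. Counts change by construction with the window and with fewer peaks, while shares among fewer peaks need not. The KLF motif share in the central 200 bp rested on 2 peaks, neither of them among the longest 5523. Without KLF3 there were 10 peaks, and no value recomputed without it moved past those limits. The depth is unknown, so the number of peaks that the library could yield is not known.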
